A study of Homo sapiens with 6 samples.

Results

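BRCA1, BRCA2, their partners BARD1, PALB2 and RAD51C, and the DNA damage checkpoint kinases ATM, ATR, CHEK1 and CHEK2 were compared between pure luminal (pLUM) and pure luminobasal (pLB) breast cancer cells. The members are all array spots of these 9 gene names other than control spots, which gave 9 of 25940 gene names and 13 of 34127 gene probes on the array. Both lines came from T47D, by the methods its T47Dco subline, an established estrogen receptor (ER) and progesterone receptor (PR) positive human breast cancer line that had been grown as tumors in mice. pLUM cells were sorted as claudin 3 positive, CD49f negative cells and had received 1 nM estradiol (E) for 72 h. pLB cells were sorted on the opposite markers and were under estrogen withdrawal (EWD). RNA of 3 samples of each line was hybridized to single-color Agilent arrays. Line and hormone coincided on all 6 arrays, so that an effect of the line and an effect of E cannot be told apart. Each line is 1 sorted line, both were fixed and stained for cytokeratin 5 before RNA extraction, and the sources used here do not say which stained fraction was hybridized. The p-values therefore measure the spread between these samples, which may be technical.

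Cells repair a broken chromosome without error by copying the sister DNA. BRCA1 works as a dimer with BARD1 and, through PALB2, brings BRCA2 to the break, where BRCA2 prepares the broken end for copying. RAD51C belongs to a family of proteins that assist in this step. ATM responds mainly to double-strand breaks and ATR to single-stranded DNA at stalled replication forks. Each passes the signal to a second kinase, ATM mainly to CHEK2 and ATR mainly to CHEK1, which hold the cell cycle. Inherited defects in BRCA1, BRCA2, PALB2, ATM and CHEK2 raise the risk of breast cancer.

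Values are given as log2 intensity minus the array's own 75th percentile, so that 0 is the brightness of a spot at that percentile. These values compare the lines for 1 probe and do not rank different probes or genes. A difference is pLB minus pLUM, and it was called where it reached 2-fold with a Benjamini-Hochberg adjusted p under 0.05 in limma, over 23099 tested probes. The probe sequences are those in the deposited files, with positions on hg19. The probes of ATR and CHEK2 are shown because these were the genes called lower, and that of BARD1 because it lay just short of the fold threshold. All 5 are written 5′ to 3′ in lower case, with nothing marked.
ATR (A_23_P136058, chr3:142168364-142168423, minus strand): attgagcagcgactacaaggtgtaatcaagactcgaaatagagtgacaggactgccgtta
ATR (A_33_P3362498, chr3:142185167-142185226, minus strand): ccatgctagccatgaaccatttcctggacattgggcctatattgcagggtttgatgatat
CHEK2 (A_23_P109452, chr22:29085145-29090020, minus strand): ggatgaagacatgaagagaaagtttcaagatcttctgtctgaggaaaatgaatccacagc
CHEK2 (A_33_P3386760, chr22:29121275-29121334, minus strand): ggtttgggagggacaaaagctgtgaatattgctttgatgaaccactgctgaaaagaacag
BARD1 (A_23_P67771, chr2:215593660-215593719, minus strand): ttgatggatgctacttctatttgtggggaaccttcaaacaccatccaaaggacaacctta
The ATR probes lie at bases 7904 and 6958 of transcript NM_001184 and read the same transcript at separate sites. The first CHEK2 probe is 60 bases long but covers 4876 bases of the genome, so it crosses an intron and matches spliced RNA. RefSeq's gene table names 6 pseudogenes after CHEK2 and 1 after BRCA1, and whether these probes also bind pseudogene RNA was not tested.

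The lines carried the markers of their labels. Of 8 luminal markers, 7 were called lower in pLB, and GATA3, a luminal transcription factor, differed by -5.36. KRT8, among the 7, had probes that disagreed, at -1.26 and -2.57 (called lower) and 1.89 (called higher). All 7 basal markers were called higher in pLB, among them KRT5, which encodes cytokeratin 5 and was well above background on no pLUM array. Of 9 fibroblast, endothelial and leukocyte markers, 4 (DCN, LUM, PDGFRB and PECAM1) were well above background on no array. The summed linear level of the 9 was 0.997 to 1.1 in pLUM and 0.952 to 1.44 in pLB. Such a sum weighs probes by their brightness, here mostly COL1A1 (mean -0.27 in pLUM and -0.83 in pLB), and can hide changes of dimmer probes. Of the 5 that were tested, 3 were called higher in pLB: COL1A2, a collagen chain, by 5.63 with a signal well above background on no pLUM array and all 3 pLB arrays, CD68 by 1.52 and VWF by 1.05. COL1A1, another collagen chain, differed by -0.56 and PTPRC by -0.47, and neither was called. A further PTPRC probe was called lower (-1.20). The part of other cell types in the values of the members was not tested. The arrays lay on 2 slides. The first held the 3 pLUM arrays and pLB 1, and the second held pLB 2 and pLB 3.

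All 13 member probes were well above background on all 6 arrays. ATR and CHEK2 were called lower in pLB at both of their probes, and no member probe was called higher. These 4 of 13 probes compare with a background of 23.7% of all tested probes called lower and 21.9% called higher, and the count is read as a description of ATR and CHEK2, not of the members as a group. At an unadjusted p under 0.05 in limma, 3 member probes were higher and 6 lower. The methods' t-test with the same adjustment and fold called 0 higher and 3 lower. Shares of all tested probes were not computed for these counts, so they say nothing of the members as a group. By the adjusted p alone, 3 member probes were higher (BRCA2, PALB2 and CHEK1; background 31.1%) and 6 lower (BRCA1, BARD1 and the probes of ATR and CHEK2; background 31.6%). The arrays of the lines did not overlap for 10 probes, against a background of 68.1%. The median difference of the 13 probes was -0.59, and that of all tested probes was -0.01.

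**Figure D1:**
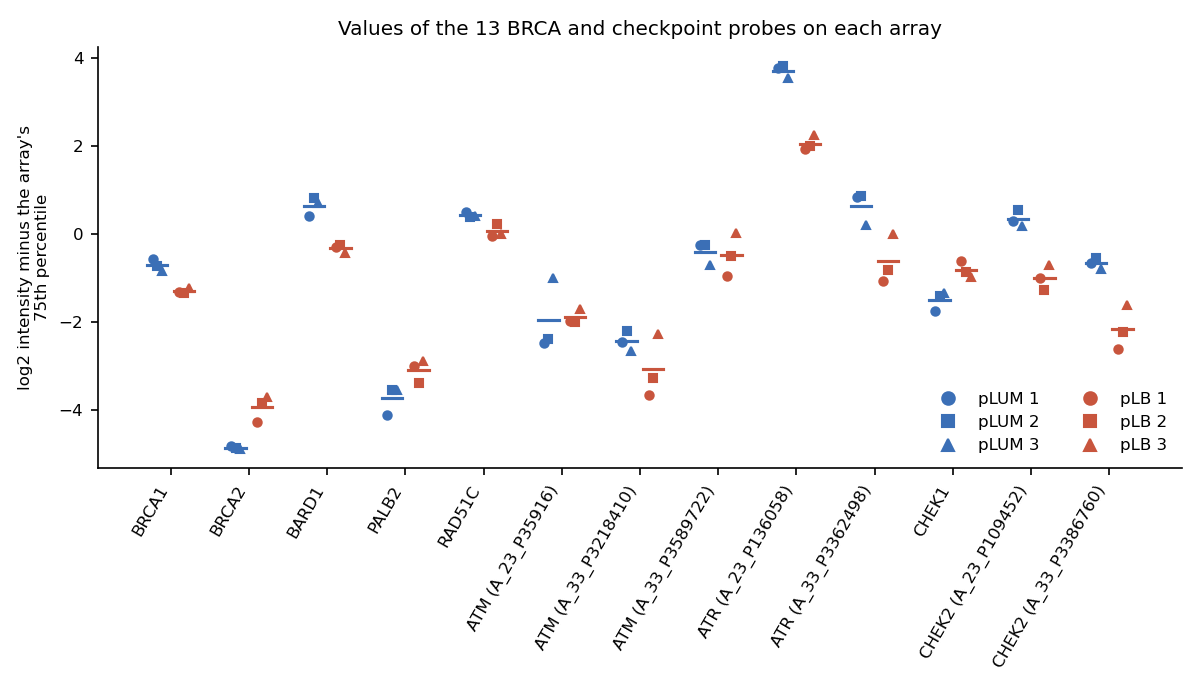
Each point is 1 probe on 1 array, as log2 intensity minus the 75th percentile of that array (y axis), with pLUM in blue, pLB in red, a symbol for each replicate and a bar at the mean of 3. ATR and CHEK2 are lower on every pLB array at both probes, BRCA2 sits near the bottom of the scale, and the ATM probes overlap between lines.

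BRCA1 was read by 1 probe, printed at 10 places on each array, in transcript NM_007300 (chr17:41196422-41196481). The values were -0.58, -0.73 and -0.84 in pLUM and -1.32, -1.35 and -1.23 in pLB. Every pLB array lay below every pLUM array. The difference was -0.59 (SE 0.16, 1.5-fold, 95% confidence interval 1.16 to 1.94, limma adjusted p = 0.014), which passed the adjusted p but not the fold threshold, so BRCA1 was not called. Before scaling, the BRCA1 spots ranged from 270.6 to 369.0 over the pLUM arrays, from 302.2 to 374.9 on pLB 1, from 227.7 to 291.9 on pLB 2 and from 168.5 to 207.2 on pLB 3. Unscaled, pLB 1 and pLB 2 thus overlapped the pLUM arrays and pLB 3 lay below them. The 75th percentiles were 474 to 566 on the pLUM arrays and 869, 696 and 449 on pLB 1, pLB 2 and pLB 3.

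BARD1, the obligate partner of BRCA1, had values of 0.40, 0.82 and 0.70 in pLUM and -0.30, -0.26 and -0.44 in pLB. The ranges did not overlap, and pLB was the lower line. The difference was -0.97 (SE 0.18, limma adjusted p = 0.0023), or 1.96-fold with an interval of 1.47 to 2.60, just short of 2-fold. BARD1 was called lower without pLUM 1 (-1.09), without pLB 2 (-1.01) and with quantile normalization (-1.01). BRCA1 and BARD1 thus shared the sign of their differences, at values that did not reach the fold threshold.

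BRCA2, a mediator of recombination at the break, was also read by 10 spots (chr13:32972996-32973055). It gave -4.83, -4.87 and -4.89 in pLUM and -4.28, -3.83 and -3.70 in pLB. All 3 pLB arrays were above all 3 pLUM arrays. The difference was 0.93 (SE 0.19, 1.90-fold, interval 1.38 to 2.61, limma adjusted p = 0.0046), which was not called for its size. Without pLB 1 it was 1.1 and called. These were dim spots, at intensities of 11.3 to 25.1 in pLUM and 27.8 to 57.6 in pLB. With normexp correction the difference was -0.18, where the median of all probes was -0.26.

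PALB2, the bridge between BRCA1 and BRCA2, measured -4.11, -3.56 and -3.54 in pLUM and -3.01, -3.39 and -2.88 in pLB. The pLB arrays were the higher ones, with no overlap. The difference of 0.64 (SE 0.23, limma adjusted p = 0.042) was below 2-fold. With normexp correction it was -0.08, where the median of all probes was -0.26. RAD51C gave 0.48, 0.39 and 0.41 in pLUM and -0.06, 0.22 and -0.003 in pLB. All pLB values were lower, but the difference of -0.37 (SE 0.16) did not pass the adjusted p (limma, 0.076).

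**Figure D2:**
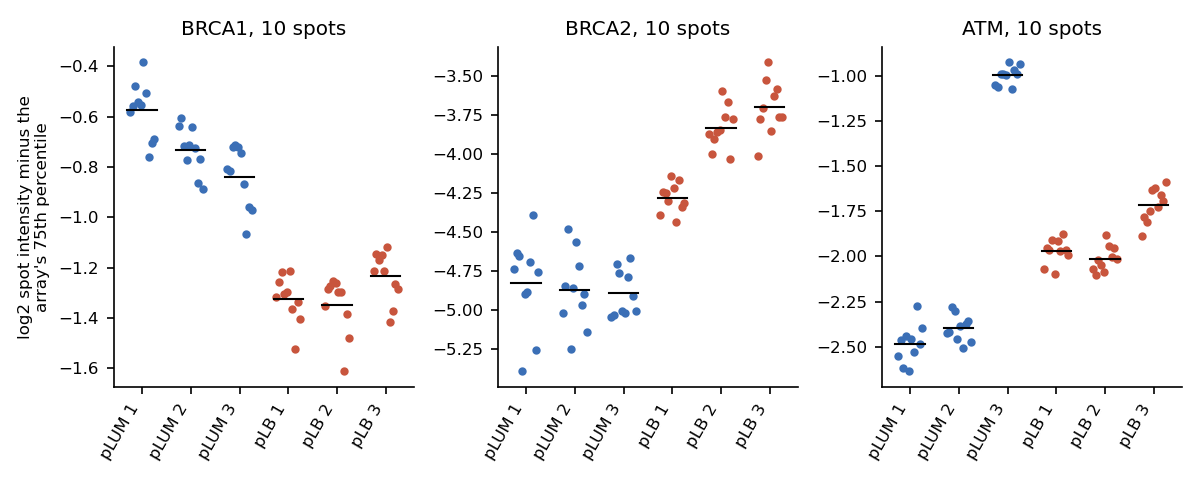
Points are the single spots of the BRCA1, BRCA2 and ATM probes that were printed 10 times on each array, as log2 spot intensity minus the array's 75th percentile (y axis, with its own scale in each panel). Black bars are array means. For BRCA1 and BRCA2 the arrays group by line, whereas for ATM the pLUM 3 array stands apart from the other pLUM arrays at all 10 spots.

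ATM, the kinase of double-strand breaks, was read by 3 probes, and none was called. The probe with the highest mean (A_33_P3589722) gave -0.26, -0.25 and -0.70 in pLUM and -0.95, -0.51 and 0.01 in pLB. The lines overlapped, with a difference of -0.08 (SE 0.28, interval -0.73 to 0.57, limma adjusted p = 0.81). The sign of this small difference turned without pLB 1 (0.15). With spike-in scaling it was 0.17, where the median of all probes was 0.24.

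The ATM probe printed 10 times (A_23_P35916) gave -2.48, -2.40 and -0.999 in pLUM and -1.97, -2.01 and -1.72 in pLB. The pLUM 3 array was thus the highest of the 6, and the other pLUM arrays were the lowest. Its 10 spots had an SD of 0.05, so the high value was shared by all spots of that probe. A gap of 1.40 between pLUM 3 and the nearer of the other pLUM arrays was reached or exceeded by 105 of 23099 probes (0.455%). The difference between lines was 0.06 (SE 0.39, interval -0.86 to 0.98, limma adjusted p = 0.90). Without pLUM 3 it was 0.54 (limma adjusted p = 0.047), which was not called for its size. The other ATM probes did not place pLUM 3 high, since it was the lowest pLUM array at both.

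The third ATM probe (A_33_P3218410), assigned in the files to transcript ENST00000389511, gave -2.45, -2.21 and -2.66 in pLUM and -3.65, -3.27 and -2.27 in pLB. Only pLB 3 reached the pLUM range. The difference was -0.62 (SE 0.35, limma adjusted p = 0.16). Without pLB 3 it was -1.02 and called lower, and with slide as a block it was -1.21 and called lower.

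ATR, the kinase of stalled forks, was called lower in pLB. At the probe with the highest mean (A_23_P136058), the values were 3.77, 3.81 and 3.53 in pLUM and 1.92, 1.99 and 2.24 in pLB. The gap between the lines was wide against the spread within them (SD 0.15 and 0.17, n = 3 each). The difference was -1.65 (SE 0.17), or 3.15-fold with an interval of 2.37 to 4.17 (limma adjusted p = 0.00015). The other ATR probe (A_33_P3362498) gave 0.82, 0.85 and 0.20 in pLUM and -1.08, -0.81 and 0.003 in pLB. Its pLUM 3 and pLB 3 arrays lay close together, although the lines did not overlap. The difference was -1.25 (SE 0.32, 2.38-fold, limma adjusted p = 0.012), and it was the call that the methods' t-test did not make (adjusted p = 0.057). The sequences of both probes are given above, and they agreed in sign at sites in the same transcript.

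CHEK1, the target of ATR, measured -1.75, -1.41 and -1.34 in pLUM and -0.62, -0.87 and -0.99 in pLB. The pLB arrays were all higher, opposite to ATR. The difference was 0.68 (SE 0.19, 1.60-fold, interval 1.17 to 2.18, limma adjusted p = 0.017) and was not called for its size.

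CHEK2, the target of ATM, was called lower in pLB at both probes. The probe across the intron (A_23_P109452) gave 0.28, 0.53 and 0.18 in pLUM and -0.99, -1.29 and -0.71 in pLB. No arrays overlapped, and the difference was -1.33 (SE 0.21, 2.51-fold, interval 1.80 to 3.51, limma adjusted p = 0.001). The other (A_33_P3386760) gave -0.67, -0.55 and -0.80 in pLUM and -2.62, -2.23 and -1.62 in pLB. Again the lines were separate, by -1.48 (SE 0.27, 2.79-fold, limma adjusted p = 0.0022). Within the slide that held both lines, pLB 1 differed from the 3 pLUM arrays by -1.32 and -1.95 for the CHEK2 probes. For the ATR probes this was -1.78 and -1.70. The same value was -0.61 for BRCA1, 0.58 for BRCA2, -0.94 for BARD1 and 0.73 for PALB2. RAD51C gave -0.48 and CHEK1 0.88. The ATM probes gave -0.55 (A_33_P3589722), -0.01 (A_23_P35916) and -1.21 (A_33_P3218410). All of these values rest on 1 pLB array.

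**Figure D3:**
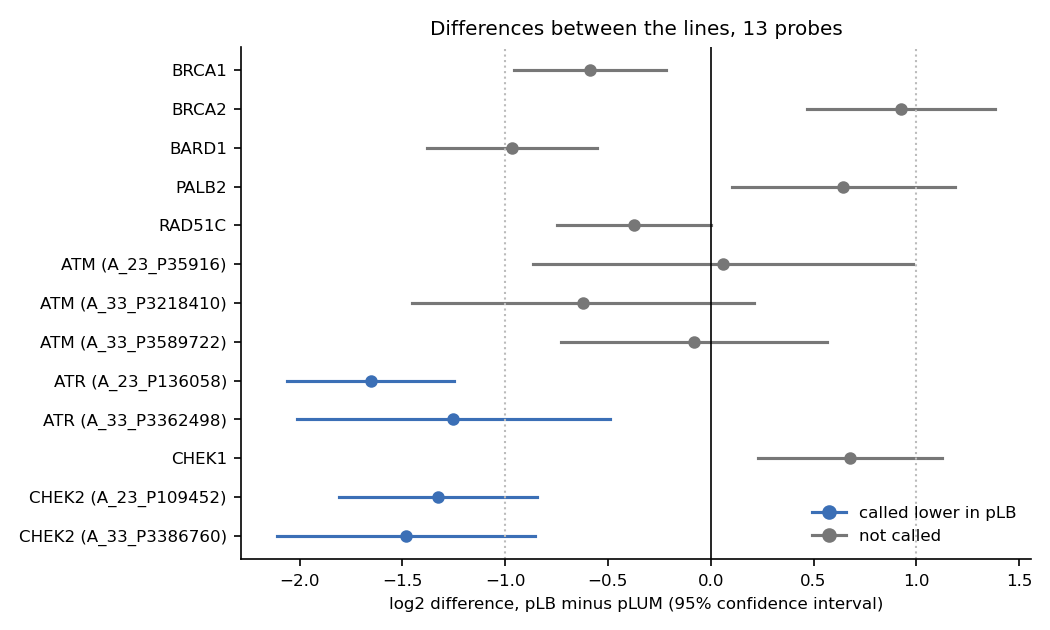
Points are fitted log2 differences, pLB minus pLUM (x axis), with 95% confidence intervals, for the 13 probes (y axis), and dotted lines mark 2-fold. The ATR and CHEK2 probes, in blue, were called lower in pLB, and the intervals of the 3 ATM probes and of RAD51C include 0.

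The genes around the members were divided by role into 8 lists of 87 genes, of which 86 were tested, each by its tested probe with the highest mean. Of these, 20 were called higher in pLB and 10 lower, and the remaining 56 were not called. Among all 17667 genes tested, 22.7% were called higher and 23% lower. The median difference was 0.19 for the 86 genes and 0.04 for all genes.

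Of 9 genes in complexes with BRCA1 or beside it, 4 were called higher and 1 lower, with a median of 0.67. RBBP8, which encodes the end resection factor CtIP, was -0.08, -0.08 and -0.02 in pLUM and 2.61, 2.77 and 2.86 in pLB. It was higher on every pLB array, by 2.80 (6.97-fold, SE 0.15, limma adjusted p = 7.5e-06). BRE, a scaffold of the BRCA1-A complex, was higher by 1.75. BAP1, a deubiquitinase, was higher by 1.64 and the helicase BRIP1 by 1.13, and both were named after their values were seen. NBR2 was called lower and is described with the BRCA1 promoter.

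Of 13 further genes of homologous recombination, 4 were called higher and 1 lower. RAD51D, a relative of RAD51C in the same complex, was higher by 1.59 at its probe with the highest mean, although its 2 other probes gave 0.04 and 0.29 and were not called. SHFM1, a small partner of BRCA2, was higher by 1.52. RAD51AP1, an accessory factor of recombination, was lower by -1.13, at values well above background on 2 of the 3 pLB arrays. SWI5 and SFR1, which act as a complex in recombination, were higher by 1.30 and 1.05 and were also named after their values were seen.

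Of 10 genes of the MRE11, RAD50 and NBN complex and of end resection, 1 was called in each direction. RMI2, of the BLM helicase complex, was higher by 1.25, and the nuclease DNA2 was lower by -1.16. Of 14 Fanconi anemia genes, which act on crosslinked DNA, 1 was called higher and 3 lower. FANCF was higher by 1.60 at its representative probe and 0.73 at its other probe, which was not called. FANCB was lower by -2.11, with -0.35, -0.39 and -0.87 in pLUM and -3.15, -2.67 and -2.11 in pLB. The nuclease FAN1 was lower by -1.76, and FANCM, named after its value was seen, by -1.33. All 3 pLB arrays were below all 3 pLUM arrays for FANCB.

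Of 13 genes that activate ATR, 4 were called higher and 1 lower, whereas ATR itself was lower. TIPIN, of the fork protection complex, was -0.75, -0.59 and -0.72 in pLUM and 1.53, 1.38 and 1.17 in pLB, higher by 2.05 (SE 0.17, limma adjusted p = 4.5e-05). Its partner TIMELESS differed by -0.91 and was not called. CLSPN, the adaptor between ATR and CHEK1, was higher by 1.95, at values well above background on 2 of the 3 pLUM arrays. RAD9A, a subunit of the checkpoint clamp, was lower by -1.86, and HUS1, of the same clamp, was higher by 1.52. HUS1 and RPA1 (1.1), a subunit of the protein that coats single-stranded DNA, were named after their values were seen, and a further RPA1 probe gave -0.71. ATRIP, the partner that carries ATR to DNA, had probes that disagreed, at 0.68 (not called) and -1.12 (called lower).

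Of 8 genes that ATM acts with on chromatin, 1 was called higher and 1 lower. H2AFX, the histone that ATM phosphorylates, was higher by 1.11, and MDC1, which binds the phosphorylated histone, was lower by -1.37. Of 10 checkpoint outputs, only CDKN1A, the p21 inhibitor of cyclin-dependent kinases, was called, higher by 2.47. It was well above background on 1 of the 3 pLUM arrays and on all 3 pLB arrays. A probe of MDM2 other than its representative was called higher as well (1.20).

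Of 9 genes tested for end joining, which repairs breaks without a template, 4 were called higher and 2 lower, with a median of 0.95. XRCC5 and XRCC6, the subunits of the Ku end-binding protein, were higher by 2.34 and 1.68. XRCC5 was -0.12, 0.13 and 0.48 in pLUM and 2.76, 2.51 and 2.26 in pLB, with no overlap. PRKDC, the kinase that Ku recruits, was higher by 1.39 at its representative probe and 1.57 at its other, and NHEJ1 was higher by 1.65. Both were named after their values were seen. POLQ, a polymerase of an alternative joining route, was lower by -1.31, and the ligase cofactor XRCC4 by -1.03, with lines that overlapped. LIG4 was well above background on no array and was not tested.

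**Figure D4:**
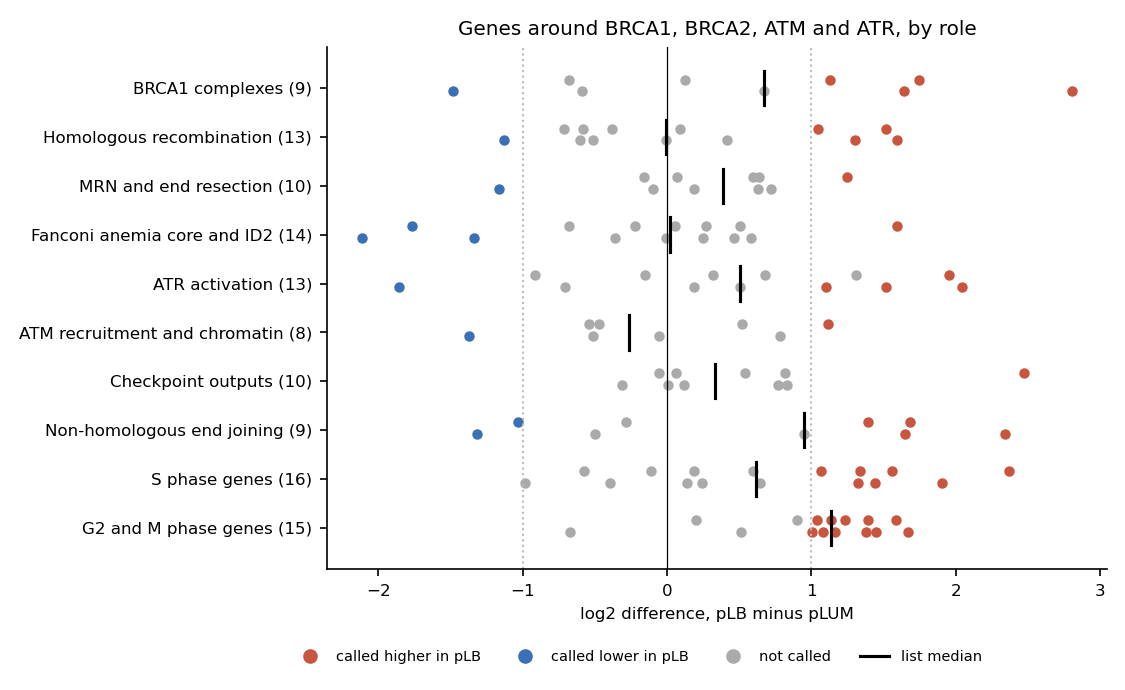
Each point is 1 gene at its representative probe, placed by its log2 difference, pLB minus pLUM (x axis), within its list (y axis, number tested in parentheses). Red and blue mark genes called higher and lower in pLB, black bars are list medians and dotted lines mark 2-fold, and the end joining and G2 and M phase lists have the highest medians, 0.95 and 1.13.

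Many of these genes are made mostly in dividing cells, and cell cycle genes also differed between the lines. Of 15 G2 and M phase genes, 11 were called higher in pLB and none lower by limma, with CCNB1 (1.67) and CCNB2 (1.59), the B cyclins, as the highest, although a further CCNB1 probe gave -0.31 and was not called. Their summed linear level was 23.6 to 24.0 in pLUM and 46.5 to 60.3 in pLB. It comes mostly from the bright probes of CENPF, UBE2C and BIRC5 (means 3.02, 2.47 and 1.96 in pLUM, 4.25, 3.54 and 2.86 in pLB). Of 16 S phase genes, 7 were called higher and none lower, led by the helicase subunits MCM5 (2.37) and MCM2 (1.91). Their summed linear level was 88.4 to 94.8 in pLUM and 98.5 to 119.9 in pLB. The brightest probes weigh most in it, here MCM7 and MCM3 (means 5.03 and 4.89 in pLUM, 5.28 and 3.90 in pLB). By the adjusted p alone, and also at an unadjusted p under 0.05, 1 G2 and M phase gene (KIF11) and 2 S phase genes (MCM3 and CCNE2) were lower, and these 3 were named after their values were seen. MKI67, a marker of cycling cells, was higher by 1.16, but 1 of its 3 probes gave 0.01. PCNA, the replication clamp, differed by 0.14 (SE 0.23, limma adjusted p = 0.62). By uptake of a DNA label in colonies grown without hormones, the paper reports generally faster proliferation of pLUM than of pLB cells. The pLUM cells of the arrays had received E, unlike those colonies, and the division rate of the array samples is not known. How these RNA levels relate to the reported rates was not tested. The part of cell cycle differences in the values of the members was not tested. In these bulk samples, fewer cells that express a gene and less of its RNA in each cell cannot be told apart.

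BRCA1 and NBR2, a noncoding RNA gene, start head to head, and both windows are given from RefSeq (GRCh38.p14), 250 bases before to 50 after each start. They share 292 of 300 bases, and the starts are 193 bases apart on opposite strands. NBR2 was -3.03, -3.03 and -3.01 in pLUM and -4.48, -4.47 and -4.57 in pLB, well above background on 2 of the 3 pLB arrays. It was lower on every pLB array, by -1.48 (SE 0.15, 2.79-fold, limma adjusted p = 0.00011), and BRCA1 differed by -0.59. The 192 bases between the starts are shown because both genes are read outward from them, on the BRCA1 strand, with a CCAAT box in capitals.
BRCA1 and NBR2 (chr17:43125365-43125556, minus strand): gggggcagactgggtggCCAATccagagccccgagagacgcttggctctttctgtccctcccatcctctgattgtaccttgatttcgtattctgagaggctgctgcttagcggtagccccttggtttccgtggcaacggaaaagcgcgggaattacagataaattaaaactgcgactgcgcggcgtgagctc
Both strands of the 300-base windows of all 9 members were searched for short motifs, taking any window of a gene with several. CCAAT was found for 5 of 9 members and in 34.6% of the 35116 windows in the table, and GGGCGG, the GC box, for 5 of 9 and in 45%. TGACGT, of the cAMP response element, was found for BRCA1 and RAD51C and in 7.98% of all windows. The E2F-type motifs TTTGGCGC, TTTCCCGC, TTTCGCGC and TTTGCCGC, searched as these exact letters, were found for no member and in 3.31% of windows. Other spellings of an E2F site were not searched, and at so low a share the lack of a match among 9 members says little. It does not show that the members lack E2F sites. The estrogen response element, searched as its full palindrome with any bases between the arms, was found for no member and in 0.057% of windows. CHEK2 had 3 CCAAT matches and 1 GC box, and ATR had no CCAAT match and 2 GC boxes. The GC boxes of BRCA1 lay only in its other window, not in the one it shares with NBR2. Members with several windows had more places to match than the single windows behind the shares. These matches describe the letters in the windows.

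**Figure D5:**
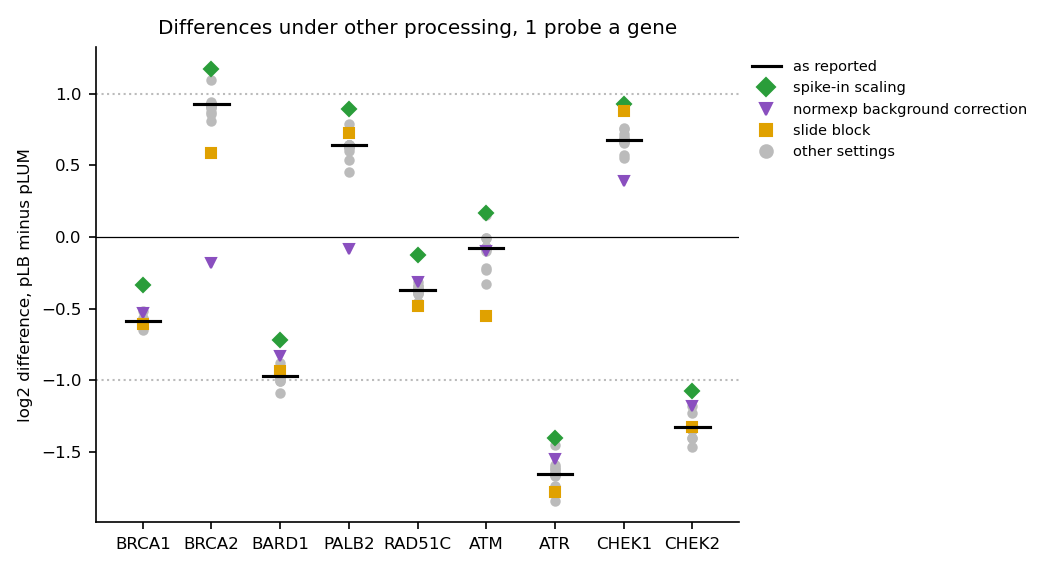
Log2 differences, pLB minus pLUM (y axis), of the representative probe of each of 9 genes (x axis) as reported (black bars), and under 19 other settings, of which 3 are marked. ATR and CHEK2 stayed below the dotted 2-fold line in all of them, whereas BRCA2 and PALB2 were below 0 with normexp correction, where the median of all probes was -0.26, and ATM was above 0 with spike-in scaling, where that median was 0.24.

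The calls of ATR and CHEK2 at their representative probes held in all 19 settings, from -1.84 to -1.41 for ATR and from -1.47 to -1.08 for CHEK2. BRCA1, BARD1, RAD51C and CHEK1 also kept their sign in all 19. The adjusted p was less stable, and none of these genes passed it with spike-in scaling. There BRCA1 was -0.34 (limma adjusted p = 0.45), BARD1 -0.72 (0.15), RAD51C -0.12 (0.8) and CHEK1 0.93 (0.082). With normexp correction BRCA1 (-0.53, limma adjusted p = 0.055) and CHEK1 (0.39, 0.12) did not pass, and BARD1 did (-0.83, 0.0096). With quantile normalization and with median scaling, BRCA1, BARD1 and CHEK1 all passed. BRCA2 and PALB2 were below 0 with normexp correction but above the median of all probes there (-0.26), and ATM was above 0 without pLB 1 and, below the median of all probes (0.24), with spike-in scaling.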

How the data were processed

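RNA of 3 pLUM and 3 pLB samples was measured on single-color arrays. The authors deposited Agilent Feature Extraction 10.10.1.1 output, which gives the intensity of each spot, corrected for background and not normalized between arrays. Names and positions (hg19) are those of the files. Flagged outlier spots (296 to 387 per array) were left out. Log2 intensities minus the array's 75th percentile were averaged over the spots of a probe. A probe entered the test if at least 3 arrays gave it a signal well above background. The test was limma's moderated one, lmFit followed by eBayes (limma 3.58.1, R 4.3.3), and was checked on simulated data. Well above background were 21285 to 22775 probes per array, and the number of arrays limits precision. The members and gene lists were chosen with earlier results of these data known. All members are named, and in each pathway or cell cycle list the 2 called genes with the largest difference in each direction. MKI67, PCNA and the cell type markers were also set to be named. Others, among them TIMELESS, ATRIP and MDM2, were named after their values were seen. Of 151 listed names, 149 matched RefSeq (GRCh38.p14). The values of 1 listed gene are not reported here. Alternatives covered background, scaling, filters, flags, spots, probes, test, threshold, blocks and each array left out. Replicate numbers did not pair the samples.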

Additional observations from a re-analysis of the deposited data

How the results depend on the processing

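The median difference of all tested probes was -0.01 as reported, 0.24 with spike-in scaling and -0.26 with normexp correction, so values under these settings are read against those shifts. Normexp correction gave 13 pathway genes called higher and 6 lower, against 20 and 10 as reported, and turned BRCA2 to -0.18, PALB2 to -0.082 and the 10-spot ATM probe to -0.22. Spike-in scaling, from 6 spike-in probes, gave 1 member probe called higher, BRCA2 at 1.18, and turned ATM to 0.17 by the shift that all probes shared. Quantile normalization gave BARD1 -1.01, called lower. With no fold threshold, 3 member probes were called higher and 6 lower, where 31.1% and 31.6% of all tested probes were. Of the pathway genes, 33 were then called higher and 18 lower, where 5727 and 5477 of all 17667 genes tested were. BRCA1 (-0.59), BRCA2 (0.93), BARD1 (-0.97), PALB2 (0.64) and CHEK1 (0.68) were then called at unchanged values. For the other settings, shares of all probes or genes were not computed, so their counts do not describe the members or lists as groups. With slide as a block, the difference rests on pLB 1 against the pLUM arrays, and the 10-spot ATM probe turned to -0.012. With the methods' t-test, adjusted as above, the ATR probe A_33_P3362498 was not called (adjusted p = 0.057).

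Leaving out 1 array at a time gave 0 to 1 member probes called higher (BRCA2 without pLB 1) and 4 to 5 called lower. The 10-spot ATM probe ranged from -0.20 to 0.54, was -0.20, -0.16 and -0.03 without pLUM 1, pLUM 2 and pLB 3, and was 0.54 without pLUM 3, where it passed the adjusted p (limma, 0.047) but not 2-fold. ATM ranged from -0.33 to 0.15, BRCA1 from -0.65 to -0.52, BRCA2 from 0.81 to 1.1, BARD1 from -1.09 to -0.88, PALB2 from 0.46 to 0.79 and CHEK1 from 0.55 to 0.76. Samples with the same replicate number did not deviate together (r = -0.27, -0.09 and -0.22 over probes). A replicate block kept 4 member probes called lower and left ATR at -1.65 (limma adjusted p = 0.0029) and CHEK2 at -1.33 (0.0093), with 20 pathway genes called higher and 9 lower. The cause of the other changes was not tested. BRCA2 and PALB2 were dim, which limits what can be said of their direction.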
